A study of Homo sapiens with 12 samples.

Results

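The response to a hairpin against SLC6A8, the creatine transporter of the cell membrane, was described across all genes of Huh7, an established human hepatocellular carcinoma line. The members were the 6 Huh7 libraries out of 12 in the series. They comprised 3 libraries with a control hairpin (shNC) and 3 with the hairpin against SLC6A8 (shSLC6A8), chosen by the line and hairpin in the labels. The labels name no other genetic change, and both groups had been kept in hypoxia for 24 hours, per the series' design text, so hypoxia is shared by the controls and no normoxic library was compared. The labels do not give the hairpin sequences, whether the cells were a pool or a clone, or whether replicates were separate cultures. The p-values thus rest on the variation among libraries of one hairpin, part of which may be technical, and an effect of the hairpin itself cannot be told apart from an effect of lower SLC6A8. The deposited table listed 62703 genes, of which 17022 had enough reads to be tested.

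Creatine and its phosphorylated form buffer the energy charge of a cell, and SLC6A8 takes creatine up from the blood or medium together with sodium and chloride. Hepatocytes are secretory cells that make most plasma proteins, carry bile acids and lipids across their membranes, and hold their identity through a network of liver transcription factors. In liver cancer cells that network is partly retained, and stress-responsive factors such as the bZIP proteins of the AP-1 group act beside it.

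SLC6A8 (ENSG00000130821, chrX:153687926-153696593 in GRCh38.p14) was at 35.6, 36.9 and 36.7 CPM (estimated counts relative to the library total, scaled by TMM factors) in the shNC libraries and at 8.63, 8.60 and 11.02 in the shSLC6A8 libraries. The groups did not overlap, and the log2 change, here and below shSLC6A8 over shNC ± SE with n = 3 libraries per group, was -1.95 ± 0.09 (edgeR's quasi-likelihood test, adjusted p = 1.02e-11). Per length, the authors' TPM values were 15.6, 12.8 and 14.6 against 6.42, 6.66 and 4.56, and the log2 ratio of their means was -1.28. The authors' deposited table lists a log2 fold change of -1.94 for it.

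The knockdown libraries differed from the controls in most genes tested. Of 17022 genes, 5253 were higher (30.9%) and 5272 lower (31%) at an adjusted p under 0.05, which is 61.8% in all, and 1277 (7.5%) and 1307 (7.68%) of them changed by a log2 of at least 1. The 6 libraries did not overlap between groups for 11343 genes (66.6%). These shares are the background for the counts below, beside those of coding and non-coding genes at the end of this paragraph. A family near them did not stand apart from the genes in general. The median log2 change was 0.001. With library totals in place of TMM factors the median of all genes was 0.105 and 59.7% of called genes were higher, against 49.9%. Protein-coding genes were called in 67.1% of 13714 cases, 34.1% higher and 33.0% lower. Long non-coding and other non-coding genes were called in 40.6% of 2154, 16.9% higher and 23.6% lower, a difference that was not tested. A coding family is thus best read beside the first shares and a non-coding family beside the second.

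**Figure D1:**
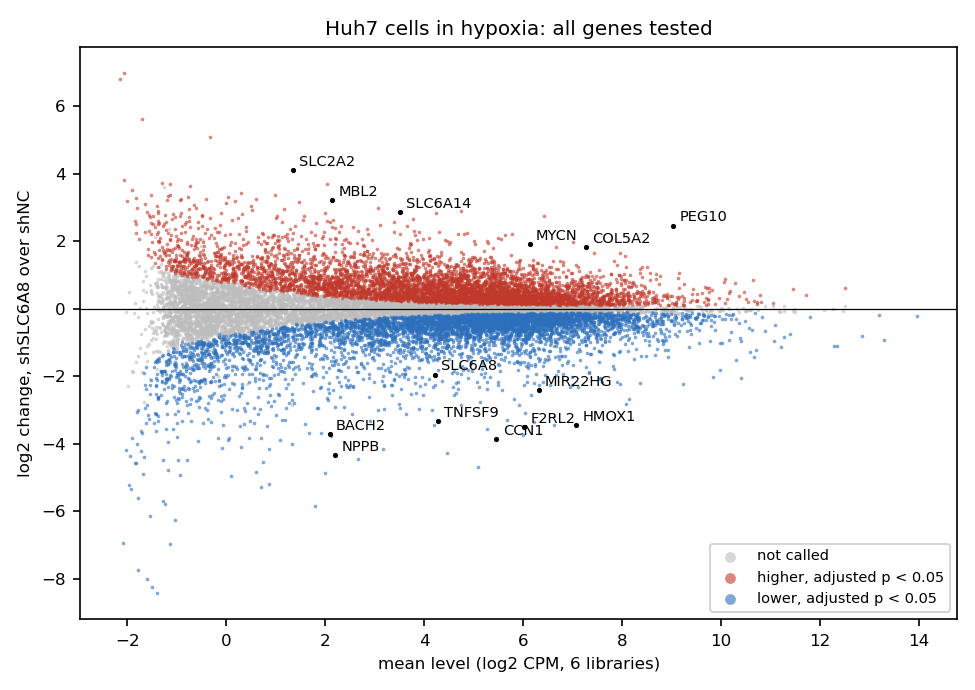
Each point is 1 of the 17022 genes tested, with its mean level in log2 CPM over 6 libraries on the x axis and its log2 change, shSLC6A8 over shNC, on the y axis. Red and blue points passed an adjusted p of 0.05 as higher or lower, and changes in both directions were found at every level, with the named genes marked in black.

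Library totals ran from 23156031 to 28078068 estimated counts. The first principal component held 88.9% of the variance, and the biological coefficient of variation between replicates was 5.92%. The control library shNC replicate 2 stood further from its replicates than any other library did, with a chi-square per degree of freedom of 7.30 and 7.69 against 2.75 to 3.83 for the other pairs. The line was checked against its markers. The 12 hepatocyte and liver tumour markers were all tested, and their summed level was 15741 to 16596 CPM in shNC and 20719 to 21356 CPM in shSLC6A8, with 9 higher, led by ALB and APOB, and 1 lower, FGB. Cholangiocyte markers summed to 850.2 to 956.6 CPM in shNC and 515.9 to 553.9 CPM in shSLC6A8, of 5 genes with 4 tested, 1 higher (SOX9) and 2 lower (KRT19 and EPCAM). Leukocyte markers summed to 347 to 363 CPM and 611 to 647 CPM, nearly all of it LYZ, a lysozyme gene, with the T cell marker CD3E and the B cell marker MS4A1 at or near 0 (6 genes, 4 tested, 2 higher and 1 lower). Fibroblast markers summed to 68.4 to 74.4 CPM and 96.9 to 99.9 CPM (7 genes, 5 tested, 3 higher and 1 lower), with DCN and ACTA2 under 0.4 CPM in every library. Endothelial markers summed to 2.27 to 3.08 CPM and 4.10 to 5.55 CPM (5 genes, 2 tested, 1 higher), with KDR at 0. The part of these markers in the results was not tested, and in such bulk samples fewer cells of a type and less RNA per cell cannot be told apart.

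Families of secreted products were examined first. Their lists also held members that stay in or on the cell, such as FABP1 and SERPINB8, so the counts are not of secreted products alone. Of 365 genes in these families, 142 were higher and 116 lower, with a median log2 change of 0.15. By the annotation in the deposited table, 1071 tested genes of the extracellular region or space took 13.1% ± 0.17 (SD, n = 3) of all TPM in shNC and 11.5% in each shSLC6A8 library, with no overlap. Of these genes 384 were higher and 355 lower. Genes with growth factor, cytokine or hormone activity went the other way from the class as a whole: 48 of 114 were lower and 21 higher, with a median of -0.19.

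Cytokine ligands, the short-range signals of immune and stressed cells, were mostly lower. Of 17 interleukins and other cytokines tested, 10 fell and 3 rose, with a median of -0.47. IL18 (chr11:112143260-112164094), a cytokine made as a precursor in epithelial cells, was at 53.3, 65.4 and 57.8 CPM in shNC and at 11.6, 10.3 and 12.05 CPM in shSLC6A8 (log2 change -2.38 ± 0.09). Its groups were far apart, and IL18R1, a subunit of its receptor, fell as well, from 4.28 ± 0.896 to 1.45 ± 0.643 CPM (SD, n = 3). IL15, which sustains natural killer and memory T cells, was at 7.51, 8.19 and 8.05 CPM against 2.80, 2.19 and 2.47. IL15RA, the receptor chain that presents IL-15, fell from 7.66 ± 1.07 to 1.41 ± 0.309 CPM, and IL2RG, the common gamma chain, fell from 18.9 ± 0.827 to 5.13 ± 0.28 CPM. So the ligand and 2 chains of its receptor moved the same way, each with an adjusted p of at most 2.7e-08 by edgeR. CLCF1, a cytokine of the IL-6 group, fell by 1.90 (SE 0.085).

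The ligands of the TNF family split evenly, with 4 of 9 higher and 4 lower. TNFSF9 (chr19:6531026-6535924), the ligand of the costimulatory receptor 4-1BB, was at 59.3, 65.7 and 57.2 CPM in shNC and at 6.61, 5.69 and 5.93 CPM in shSLC6A8 (log2 change -3.32 ± 0.09). TNFRSF9, the gene of that receptor, was at 37.8, 35.6 and 40.1 CPM against 6.28, 7.33 and 5.85 CPM. Both were lower in every knockdown library, with no overlap. TNFSF15 also fell, while TNFSF4, the ligand of OX40, TNFSF10, which encodes the death ligand TRAIL, and LTB, which encodes lymphotoxin beta, rose by 1.51 (SE 0.19), 1.22 (SE 0.11) and 0.99 (SE 0.14).

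Among growth factors and hormones the largest decrease by fold was in NPPB (chr1:11857464-11858945), the precursor of B-type natriuretic peptide. NPPB was at 18.3, 23.2 and 18.8 CPM in shNC and at 1.22, 0.685 and 1.10 CPM in shSLC6A8 (log2 change -4.34 ± 0.17, adjusted p = 9.8e-13 by edgeR). ADM, the gene of the vasodilator peptide adrenomedullin, fell from 72.0 ± 3.9 to 9.92 ± 0.719 CPM. In the list of 32 hepatokines and peptide hormones to which such genes belong, 14 were higher and 12 lower, but 9 of the decreases and 3 of the increases passed a log2 of 1. SELENOP, the selenium carrier of plasma, rose from 227 ± 4.15 to 397 ± 4.91 CPM. FGF19 (chr11:69698238-69704022), a hormone that restrains bile acid synthesis, was at 311, 320 and 297 CPM in shNC and at 88.7, 78.7 and 81.9 CPM in shSLC6A8. FGFR4, the receptor through which FGF19 acts on hepatocytes, was higher, at 180 ± 5.48 and 351 ± 17.1 CPM. VEGFA and PDGFB fell by 0.65 (SE 0.053) and 1.02 (SE 0.15), and MST1, which encodes the plasma protein MSP, rose by 1.08 (SE 0.081).

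Secreted antagonists and guidance cues changed by family. DKK1 (chr10:52314281-52317657), which blocks the WNT coreceptors LRP5 and LRP6, was at 25.2, 26.3 and 24.3 CPM in shNC and at 119, 116 and 117 CPM in shSLC6A8, a log2 change of 2.22 ± 0.06 with no overlap. The BMP antagonist CHRD rose by 1.26 (SE 0.12) and the activin-binding FSTL3 fell by 1.43 (SE 0.079). Of 12 such WNT and BMP antagonists, 6 were higher and 2 lower. Semaphorins, which steer axons and endothelial cells, were higher for 10 of 15 members and lower for 3, with a median of 0.55. SEMA3A, SEMA3D and SEMA3F rose by 1.09 to 1.18, whereas SEMA3B, SEMA4B and SEMA7A were the 3 that fell. Of 6 netrins, slits, angiopoietins and RGM proteins 2 fell, NTN1 by 0.45 (SE 0.098) and NTN4 by 1.18 (SE 0.32), and the other 4 were not called, with a median of -0.41 over the 6.

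Protease inhibitors of the SERPIN family changed in 18 of 20 cases, with 12 higher and 6 lower. SERPINE2, which inhibits thrombin, fell from 58.2 ± 2.06 to 21.8 ± 0.949 CPM, and SERPINB8, an intracellular member, fell from 23.7 ± 1.42 to 6.18 ± 0.194 CPM. Members of the plasma clade were among those that rose. SERPINA7, the thyroxine carrier, went from 2.50, 1.82 and 2.001 CPM to 10.1, 12.6 and 12.1 CPM. SERPINF2, the plasmin inhibitor, rose by 0.99 (SE 0.049) and SERPINA4, the kallikrein inhibitor, by 1.25 (SE 0.13). Secreted serine proteases and convertases were higher for 14 of 27 members and lower for 4, with HABP2 and PLAU among the increases and PRSS23 and HTRA3 among the decreases. HABP2 rose from 18.1 ± 0.608 to 42.1 ± 1.77 CPM and PRSS23 fell from 62.5 ± 1.16 to 24.1 ± 0.249 CPM.

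Matrix genes went in both directions. Of 25 collagens, 9 rose and 9 fell, and of 41 matricellular and elastic fibre genes 17 rose and 11 fell. COL5A2 (chr2:189031898-189441111), a chain of fibrillar collagen V, was at 84.0, 75.5 and 86.5 CPM in shNC and at 295, 298 and 287 CPM in shSLC6A8. COL5A3, another chain of the same collagen, fell from 4.98 ± 0.84 to 1.46 ± 0.255 CPM, and COL7A1, which forms anchoring fibrils, fell by 1.13 (SE 0.087). COL2A1 and COL26A1 rose by 1.43 (SE 0.059) and 1.51 (SE 0.068). LAMB3, a laminin beta chain of epithelia, fell from 80.9 ± 4.61 to 19.8 ± 0.395 CPM. The basement membrane linker NID1 rose from 305 ± 29.4 to 563 ± 24 CPM. Of 17 laminin and basement membrane genes 5 were higher and 6 lower, a split that became 5 and 11 when a trend with gene length was removed. The matricellular protein CCN2 fell from 504 ± 24.4 to 113 ± 3.48 CPM, while the calcium-binding SMOC1 rose from 11.5 ± 0.529 to 33.2 ± 0.938 CPM. TNXB fell from 11.2 ± 1.19 to 0.864 ± 0.366 CPM, although its reads may be shared with a near-identical pseudogene. Among cell-surface proteoglycans SDC1, SDC2 and SDC3 rose by 1.02 to 1.24, SDC4 fell by 0.55 and the hyaluronan receptor CD44 fell by 1.52.

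S100 genes were lower for 6 of 11 members and higher for 1, with a median of -0.44, and galectins and C-type lectins were lower for 9 of 16 and higher for 1, with a median of -0.38. S100A10, the partner of annexin A2, was at 358, 434 and 368 CPM in shNC and at 157, 169 and 160.1 CPM in shSLC6A8. S100A11 and S100A6 fell by 0.92 (SE 0.059) and 0.67 (SE 0.095). One gene of each list rose, S100A9, a subunit of calprotectin, from 30.3 ± 3.55 to 67.6 ± 3.41 CPM, and the mannose-binding lectin MBL2 from 1.43 ± 0.578 to 13.5 ± 0.775 CPM. Lipocalins and small lipid carriers showed the reverse balance, with 18 of 24 higher and 3 lower and a median of 0.41. FABP1, the fatty acid carrier of liver cytosol, was at 95.0, 102 and 96.5 CPM in shNC and at 275, 308 and 340 CPM in shSLC6A8. The 3 that fell were AMBP, CRABP2 and FABP3, of which CRABP2, which delivers retinoic acid to the nucleus, fell by 1.69 (SE 0.12).

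**Figure D2:**
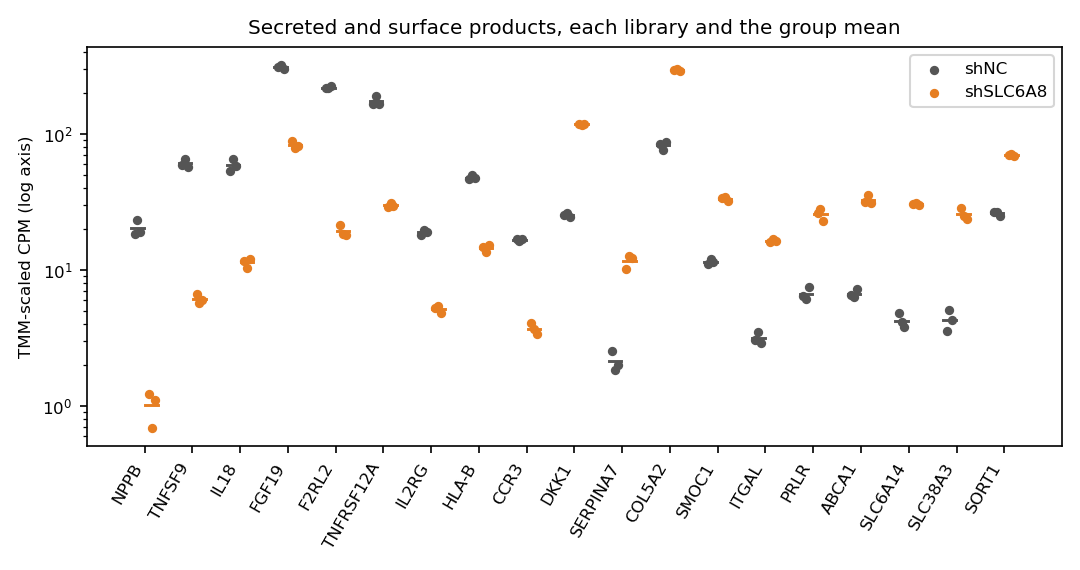
Levels in CPM (log axis) of 19 secreted and surface products in each of the 3 shNC and 3 shSLC6A8 libraries, with a bar at the group mean. For each gene shown all 3 knockdown libraries lie on one side of all 3 controls, as the rule that chose the genes required, with NPPB falling from 20.1 to 1.001 CPM and DKK1 rising from 25.2 to 117 CPM.

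Of 884 genes in families of surface and other membrane proteins, 323 were higher and 278 lower, with a median of 0.05. Not all of them act at the cell surface: the class included 45 mitochondrial carriers, of which 14 were higher and 12 lower. The largest decrease among the surface genes named here was in F2RL2 (chr5:76615482-76623403), the protease-activated receptor PAR3. F2RL2 was at 216, 216 and 224 CPM in shNC and at 21.2, 18.4 and 18.1 CPM in shSLC6A8 (log2 change -3.51 ± 0.06, adjusted p = 5.6e-17 by edgeR). The groups were far apart. P2RY6, a receptor of uridine diphosphate, fell from 49.4 ± 4.56 to 13.1 ± 1.19 CPM, and CCR3, an eotaxin receptor, from 16.6 ± 0.275 to 3.68 ± 0.356 CPM. LPAR3 and PTGER4, receptors of lysophosphatidic acid and prostaglandin E2, rose by 1.09 (SE 0.14) and 1.12 (SE 0.16). Of 58 receptors of this kind with known ligands, 17 were higher and 21 lower.

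TNF receptors were lower for 10 of 18 members and higher for 4, with a median of -0.49. TNFRSF12A, the receptor of TWEAK, was at 166, 191 and 164 CPM in shNC and at 28.9, 30.9 and 29.5 CPM in shSLC6A8. TNFRSF10D, a decoy receptor of TRAIL, fell from 109 ± 1.49 to 43.1 ± 3.34 CPM. The 4 that rose were TNFRSF11A, TNFRSF14, TNFRSF25 and TNFRSF6B, the last named after its values were seen. Cytokine receptors moved equally in both directions, with 14 of 39 higher and 14 lower. Beside the decreases of IL15RA, IL2RG and IL18R1, the hormone-type receptors PRLR, LEPR and CSF3R rose. PRLR, the prolactin receptor, was at 6.44, 6.10 and 7.46 CPM against 26.1, 27.8 and 22.9 CPM, and CSF3R rose from 18.0 ± 0.319 to 48.8 ± 1.61 CPM.

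Of 16 integrins, receptors of the matrix, 7 rose and 7 fell. ITGA1 and ITGA6, chains of collagen and laminin receptors, rose from 28.7 ± 2.3 to 70.1 ± 4.81 CPM and from 50.9 ± 1.85 to 111 ± 5 CPM, while ITGA5, the fibronectin receptor chain, fell from 229.97 ± 3.47 to 117 ± 7.03 CPM. ITGAL, best known from leukocytes, rose from 3.13 ± 0.307 to 16.2 ± 0.395 CPM and ITGAM, another leukocyte chain, fell from 11.6 ± 1.71 to 4.88 ± 0.27 CPM. PTPRC, the general leukocyte marker, was under 0.8 CPM in every library. Of 25 classical and atypical cadherins 15 were higher and 5 lower, or 3 with library totals. Protocadherins, most of them clustered on chromosome 5, were higher for 22 of 44 and lower for 5, with a median of 0.61, and by DESeq2 14 were higher and 3 lower. The 5 lower ones became 3 without shNC replicate 3 and 2 without shSLC6A8 replicate 2 or with library totals. PCDHB5 was at 13.996, 13.3 and 13.7 CPM against 37.9, 36.2 and 38.1 CPM, while PCDHB2, of the same cluster, fell from 31.7 ± 1.84 to 19.8 ± 1.64 CPM. Genes of this cluster are close copies, and those of its gamma part share their last exons, so reads may be split between them.

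Receptor tyrosine kinases, which carry growth signals, were higher for 13 of 23 members and lower for 5. ERBB3 was at 179, 159.5 and 179 CPM in shNC and at 351, 344 and 341 CPM in shSLC6A8, and FGFR3 rose from 107 ± 1.75 to 185 ± 1.66 CPM. The insulin receptor INSR and the IGF-1 receptor IGF1R fell, by 0.69 (SE 0.065) and 0.58 (SE 0.09). Among ephrin receptors EPHA2 fell from 287 ± 10.4 to 121 ± 6.24 CPM, and EPHA1, EPHB2 and EPHB4 rose by 1.53 (SE 0.13), 1.76 (SE 0.18) and 0.71 (SE 0.049). By the authors' TPM values the log2 ratio of EPHA1 was 1.02. Frizzled, LRP and sortilin-type receptors were higher for 19 of 31 members and lower for 7. SORT1, the sortilin that sorts lipoproteins and neurotrophins, rose from 26.0 ± 0.974 to 69.9 ± 1.03 CPM and SORL1 from 10.6 ± 2.06 to 28.7 ± 2.05 CPM, whereas LRP10 fell from 160 ± 4.14 to 71.1 ± 1.22 CPM.

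Genes of antigen presentation were lower for 16 of 31 members and higher for 5, or 8 with library totals, and the median was -0.36. HLA-B was at 46.5, 49.4 and 46.9 CPM in shNC and at 14.7, 13.5 and 15.1 CPM in shSLC6A8, and HLA-C fell from 262 ± 12.1 to 104 ± 5.99 CPM. Class I genes are close copies of one another, so their reads may be split. ULBP1, a stress ligand of the natural killer receptor NKG2D, fell by 1.31 (SE 0.22). ERAP1, which trims peptides for class I, rose from 33.3 ± 2.71 to 65.0 ± 2.84 CPM.

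Membrane transporters changed in both directions. ABC transporters were lower for 19 of 39 members and higher for 10. ABCA1, which exports cholesterol, was at 6.48, 6.32 and 7.21 CPM in shNC and at 31.7, 35.2 and 30.7 CPM in shSLC6A8, and the sterol exporter ABCG8 rose from 1.13 ± 0.337 to 5.36 ± 0.447 CPM. ABCB11, the bile salt export pump, fell from 21.6 ± 1.01 to 5.03 ± 0.291 CPM and ABCC2, the conjugate exporter of the bile canaliculus, from 380.3 ± 31.5 to 157 ± 4.81 CPM. Of the organic ion carriers 12 of 28 were higher and 8 lower, and SLCO1B1 and SLCO4C1 rose by 2.04 (SE 0.25) and 2.28 (SE 0.15). Amino acid carriers were higher for 15 of 44 members and lower for 17. SLC6A14 (chrX:116436606-116461458), a relative of SLC6A8 that carries neutral and cationic amino acids, was at 4.78, 4.09 and 3.75 CPM in shNC and at 30.2, 31.0 and 30.0 CPM in shSLC6A8 (log2 change 2.85 ± 0.10). The system A and N carriers SLC38A4 and SLC38A3 rose from 12.9 ± 2.51 to 60.5 ± 2.63 CPM and from 4.27 ± 0.749 to 25.7 ± 2.59 CPM. In the opposite direction, SLC7A11, the cystine importer, fell from 144 ± 14.4 to 31.8 ± 3.54 CPM and SLC7A7 from 40.6 ± 2.77 to 8.51 ± 0.551 CPM. Among sugar and vitamin carriers 30 of 69 were higher and 18 lower. The inositol carrier SLC5A11 fell from 9.99 ± 0.191 to 1.59 ± 0.102 CPM and SLC2A10 rose from 2.19 ± 0.437 to 9.40 ± 0.731 CPM.

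**Figure D3:**
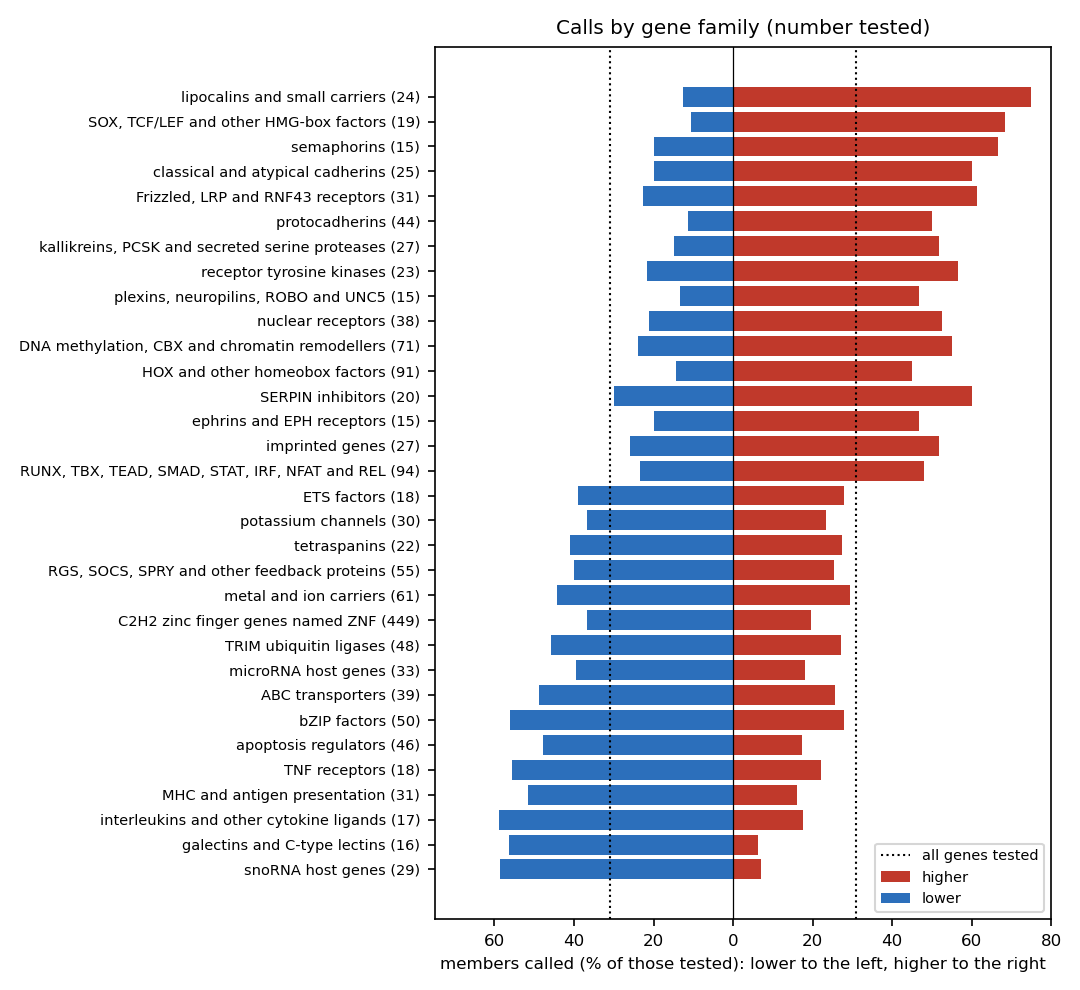
Percentage of tested members called higher (red, to the right) and lower (blue, to the left) in families with at least 15 tested members. Secreted, surface, regulator and non-coding families were ranked by the share higher minus the share lower. The 32 shown were taken in equal numbers from the top and the bottom of that ranking. Dotted lines mark the shares over all genes tested, 30.9% higher and 31% lower, and lipocalins, HMG-box factors and semaphorins extend furthest to the right while snoRNA host genes and cytokine ligands lean to the left.

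Regulators as a class lay near the background, with 750 of 2194 higher and 707 lower, but their families did not move alike. The bZIP factors, dimers that include AP-1 and its antagonists, were lower for 28 of 50 members and higher for 14, with a median of -0.40 and 17 decreases past a log2 of 1. FOSL1 (chr11:65892049-65900545), an AP-1 subunit, was at 49.0, 50.03 and 50.6 CPM in shNC and at 7.13, 5.31 and 6.35 CPM in shSLC6A8 (log2 change -3.0001 ± 0.09). ATF3, a stress-induced member, fell from 41.3 ± 4.45 to 5.27 ± 0.49 CPM. BACH2, a repressor that binds related sites, was at 18.2, 12.6 and 15.8 CPM against 0.648, 1.54 and 1.29 CPM. CREB5 fell by 2.60 (SE 0.12). The increases were led by HLF, a PAR-type factor of liver, from 8.69 ± 0.866 to 26.4 ± 0.778 CPM, CREB3L4 and MAF.

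Developmental factors were more often higher than lower. Of 91 homeobox genes 41 rose and 13 fell (8 by DESeq2), with a median of 0.29, and SOX, TCF/LEF and other HMG-box factors were higher for 13 of 19 and lower for 2, with a median of 0.65. ONECUT1 (chr15:52755053-52790336), the liver factor HNF6, was at 8.09, 6.94 and 7.88 CPM in shNC and at 33.4, 34.2 and 27.97 CPM in shSLC6A8. PBX3 rose from 2.73 ± 0.609 to 10.9 ± 0.239 CPM, and PDX1 and SOX2 were low and rose by 1.58 (SE 0.21) and 1.64 (SE 0.27). SOX9, a progenitor and bile duct factor, rose from 47.4 ± 1.06 to 112 ± 6.18 CPM although the bile duct keratin KRT19 fell from 660.03 to 254 CPM. The 2 genes of that list that fell, HBP1 and TOX4, are HMG-box genes outside the SOX and TCF/LEF families. MSX1 and ISL2 fell by 1.22 (SE 0.13) and 1.14 (SE 0.16). FOXN4, a forkhead gene known from retina, was at 3.44, 2.18 and 3.17 CPM against 23.9, 21.8 and 24.6 CPM, and the embryonic zinc fingers SALL4 and SALL1 rose by 2.05 (SE 0.18) and 1.59 (SE 0.081).

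All 20 KLF and SP factors tested were called, 11 higher and 9 lower. KLF4 was at 33.4, 33.6 and 34.02 CPM in shNC and at 6.85, 4.97 and 6.12 CPM in shSLC6A8, whereas KLF15, a factor of fasting metabolism, rose from 5.83 ± 0.373 to 20.5 ± 2.03 CPM. Among bHLH factors, 20 of 54 were higher and 16 lower. MYCN was at 37.9, 36.5 and 33.6 CPM against 138, 133.9 and 139 CPM, MLXIPL, the glucose-responsive factor ChREBP, rose from 5.94 ± 0.65 to 17.7 ± 2.04 CPM, and BHLHE40, a repressor linked to hypoxia and the clock, fell from 149 ± 4.22 to 39.2 ± 0.832 CPM. Nuclear receptors were higher for 20 of 38 members and lower for 8. NR0B2, the bile-acid-induced repressor SHP, THRB and RARG rose by 1.20 to 1.48, and NR4A1, RORA and RARB fell. In the non-canonical NF-kB pathway, NFKB2 fell from 144 ± 9.52 to 60.6 ± 2.71 CPM, RELB from 37.7 ± 3.37 to 14.8 ± 1.04 CPM and their kinase MAP3K14 from 18.0 ± 1.14 to 5.59 ± 0.287 CPM.

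Among genes that write, read and erase chromatin marks, DNA methylation, CBX and remodelling genes counted 39 of 71 higher and 17 lower, and lysine demethylases and methyltransferases 29 and 17 of 64. The de novo DNA methyltransferase DNMT3B was at 10.3, 9.48 and 10.2 CPM in shNC and at 29.7, 31.0 and 27.6 CPM in shSLC6A8. DNMT3A rose from 29.4 ± 1.12 to 59.9 ± 1.48 CPM, and TET1, which oxidises methylcytosine, rose from 4.16 ± 1.04 to 12.2 ± 0.496 CPM. NSD1 and NSD2, which methylate histone H3 at lysine 36, rose by 1.06 (SE 0.064) and 1.29 (SE 0.052). The demethylases KDM3A and KDM6B, which need oxygen as a substrate, fell, KDM3A from 180.3 ± 10.5 to 68.5 ± 3.36 CPM. Decreases in signalling families included RASD1, a small GTPase induced by dexamethasone, from 23.3 ± 0.0806 to 2.33 ± 0.395 CPM, and ARHGDIB, an inhibitor of small GTPases, from 16.7 ± 0.669 to 1.93 ± 0.126 CPM. MAP2K6, a kinase of p38, rose from 6.51 ± 0.437 to 29.7 ± 1.22 CPM, a log2 change of 2.19, though the authors' TPM values gave a log2 ratio of 1.39. MAPK11, a form of p38, fell by 1.77 (SE 0.17). Cyclins, their kinases and inhibitors were higher for 26 of 52 members and lower for 15. The inhibitor CDKN2B fell from 60.6 ± 0.884 to 14.5 ± 0.397 CPM and its relative CDKN2C rose from 5.47 ± 1.51 to 16.7 ± 1.12 CPM.

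Imprinted genes were higher for 14 of 27 members and lower for 7. PEG10 (chr7:94656325-94669695), a placental gene derived from a retroelement, was at 235.9, 199 and 233.7 CPM in shNC and at 1259.96, 1248 and 1179 CPM in shSLC6A8 (log2 change 2.46 ± 0.06). The authors' TPM values gave it a log2 ratio of 2.10. PHLDA2, a maternally expressed growth inhibitor, fell from 81.3 ± 6.41 to 18.2 ± 1.55 CPM and the non-coding H19 fell from 5.99 ± 0.829 to 3.68 ± 0.336 CPM.

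Zinc finger genes named ZNF, the largest regulator family, were lower for 165 of 449 members and higher for 88. The balance followed chromosome 19, where many of them lie. Of its 223 members on that chromosome 99 were lower and 29 higher, with a median of -0.25, whereas of 226 elsewhere 66 were lower and 59 higher, with a median of 0.01. The 958 genes tested on chromosome 19 that carry no ZNF name were lower in 404 cases and higher in 213, with a median of -0.20, so the shift was not limited to ZNF genes. ZNF823 was at 30.0, 31.2 and 31.8 CPM in shNC and at 7.98, 8.05 and 6.92 CPM in shSLC6A8, and ZNF114 fell by 1.99 (SE 0.10). Single ZNF genes rose, among them ZNF618 on chromosome 9, from 4.70 ± 0.489 to 22.96 ± 1.8 CPM.

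Over all its 1187 tested genes, chromosome 19 had a median log2 change of -0.21, the lowest of any chromosome, with 504 lower and 243 higher. The next highest and lowest medians were 0.14 on chromosome 4, 0.13 on chromosome 15 and -0.06 on chromosome 11. Relative to all other genes, the median level of chromosome 19 genes, as a log2 deviation from the mean of the 6 libraries, was 0.087, 0.125 and 0.055 in the shNC libraries and -0.083, -0.114 and -0.072 in the shSLC6A8 libraries, so the groups did not overlap. Chromosome 19 is rich in GC, and its genes were lower than others in each quintile of GC content, at medians of -0.16 to -0.29 against 0.11 to -0.02. With trends of length and GC removed the median was -0.16, and across all settings it ranged from -0.23 to -0.11, the last with library totals, where the median of all genes was 0.105.

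**Figure D4:**
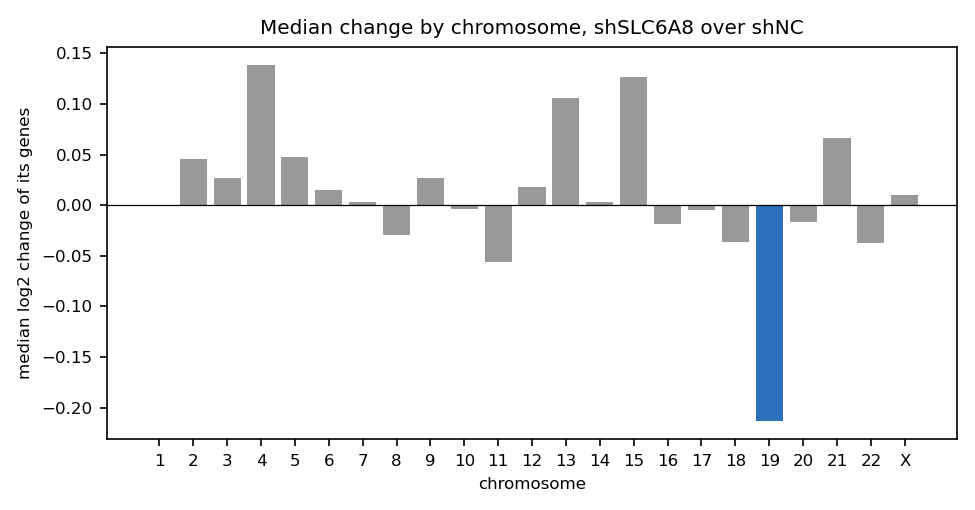
Median log2 change, shSLC6A8 over shNC, of the tested genes of each chromosome (bars; mitochondrial genes are left out). Chromosome 19, in blue, lies at -0.21, while the other medians lie between -0.06 and 0.14.

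Among intracellular families the proteasome had the median furthest from 0, with 32 of 46 subunit and regulator genes lower and 5 higher and a value of -0.42. PSMC4, an ATPase of the regulatory particle, was at 379, 404 and 370.01 CPM in shNC and at 183, 183 and 189 CPM in shSLC6A8, and PSMB3, of the core, fell from 343 ± 27.8 to 184 ± 17.9 CPM. The 5 genes that rose, of which PSMB9 and PSME2 were named after their values were seen, were the immunoproteasome subunits PSMB8 and PSMB9, the activator subunits PSME1 and PSME2, and the assembly factor PSMD5. They rose by 0.14 to 1.08. Genes of the vacuolar ATPase and endosomal sorting were lower for 53 of 108 members and higher for 23, with ATP6V0A1 down from 207 ± 7.65 to 70.5 ± 4.57 CPM and ATP6V0E2 up from 9.44 ± 0.201 to 26.2 ± 1.63 CPM. Apoptosis regulators were lower for 22 of 46 members and higher for 8, or 17 and 15 with library totals. BNIP3L, a mitophagy receptor, fell from 146 ± 0.677 to 52.1 ± 1.63 CPM and the inflammatory caspase CASP4 from 111 ± 5.67 to 47.3 ± 1.93 CPM, while the death protein BCL2L11 and the pore-former GSDMD rose by 1.05 (SE 0.066) and 1.16 (SE 0.07).

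Among metabolic families, 29 of 58 aldehyde and alcohol dehydrogenases rose and 13 fell. ALDH6A1, of valine breakdown, was at 9.70, 7.03 and 8.05 CPM in shNC and at 36.0, 36.0 and 34.5 CPM in shSLC6A8, and HSD11B2, which inactivates cortisol, rose from 3.59 ± 0.169 to 20.03 ± 1.15 CPM. Of 56 enzymes of acyl-CoA metabolism 32 rose and 10 fell, or 6 with library totals. Within them the activating enzyme SLC27A2 rose from 2.58 ± 1.04 to 14.02 ± 0.53 CPM, and ACSL5, with a like reaction, fell from 111 ± 1.64 to 31.8 ± 0.596 CPM. Of 68 one-carbon and nucleotide enzymes 34 rose and 17 fell, or 8 with library totals. DPYD, which degrades pyrimidines, and CTPS2, which makes CTP, rose by 2.22 (SE 0.13) and 1.45 (SE 0.063), and the uridine phosphorylase UPP1 fell by 1.83 (SE 0.073). Peroxiredoxins, thioredoxins and selenoproteins were lower for 32 of 63 members and higher for 19. TXNRD1, the cytosolic thioredoxin reductase, was at 1931, 1765 and 1969 CPM against 529, 554 and 528 CPM, while SELENON rose from 15.7 ± 0.454 to 48.5 ± 0.509 CPM. The heme oxygenase HMOX1 (chr22:35381096-35394207) was at 434, 474 and 428 CPM in shNC and at 42.1, 37.8 and 43.1 CPM in shSLC6A8 (log2 change -3.44 ± 0.06).

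Non-coding genes had more decreases than increases with TMM factors: 365 of 2154 were higher and 509 lower, with a median of -0.10. Of these, 280 decreases and 155 increases passed a log2 of 1. With library totals in place of TMM factors 441 were higher and 442 lower. LUCAT1, a stress-induced RNA, was at 35.8, 36.8 and 37.9 CPM in shNC and at 4.05, 5.14 and 3.42 CPM in shSLC6A8, and LINC01559 was at 31.0, 30.9 and 31.1 CPM against 4.38, 3.87 and 3.91 CPM. Neither overlapped between groups. Intergenic LINC genes as a family split evenly, with 83 of 340 higher and 80 lower, and LINC01224 and LINC02532 rose by 1.45 (SE 0.09) and 1.38 (SE 0.088). Genes that host small nucleolar RNAs in their introns were lower for 17 of 29 members and higher for 2, SNHG26 and TMEM107, with a median of -0.32. The call of TMEM107 was lost in 7 of 15 other settings. ZFAS1 was at 115, 122 and 114 CPM in shNC and at 51.5, 60.9 and 63.4 CPM in shSLC6A8. GAS5 and DANCR, chosen after their values were seen, fell by 0.47 (SE 0.060) and 0.67 (SE 0.050).

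MicroRNA host genes were lower for 13 of 33 members and higher for 6, with a median of -0.34, and all 19 are given here after their values were seen. The lower ones were MIR29B2CHG, MIR193BHG, MIR22HG, MIR210HG, MIR222HG, MIR23AHG, MIR4435-2HG, MIR4458HG, MIR9-1HG, MIRLET7A1HG, MIR194-2HG, MIR30DHG and MIR34AHG, with log2 changes from -3.48 to -0.57. The higher ones were MIR1915HG, MIR122HG, MIR924HG, MIR2052HG, MIR600HG and MIR17HG, with log2 changes from 0.67 to 1.81. Mature miRNAs were not measured, and the libraries record only the host transcripts. The mature sequences below, from the RefSeq table of GRCh38.p14, are shown for a few hosts with changes in either direction and for lower hosts whose miRNAs share a seed (bases 2 to 8, in capitals, 5′ to 3′). The mature miR-22-3p lies at chr17:1713914-1713935 and miR-210-3p at chr11:568112-568133, both on the minus strand, and miR-122-5p at chr18:58451088-58451109 on the plus strand.
hsa-miR-22-3p: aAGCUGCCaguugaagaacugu
hsa-miR-210-3p: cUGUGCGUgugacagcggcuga
hsa-miR-122-5p: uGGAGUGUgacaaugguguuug
hsa-miR-29b-3p: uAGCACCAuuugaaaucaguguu
hsa-miR-29c-3p: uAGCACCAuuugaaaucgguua
hsa-miR-221-3p: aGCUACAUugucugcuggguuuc
hsa-miR-222-3p: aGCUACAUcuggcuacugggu
hsa-let-7a-5p: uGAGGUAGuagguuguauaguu
hsa-let-7d-5p: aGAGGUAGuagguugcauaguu
hsa-let-7f-5p: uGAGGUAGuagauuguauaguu
hsa-miR-4458: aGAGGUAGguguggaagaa

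MIR22HG, the host of miR-22, was at 182, 182 and 186 CPM in shNC and at 35.8, 33.4 and 34.8 CPM in shSLC6A8 (log2 change -2.40 ± 0.05, adjusted p = 9.4e-16 by edgeR). MIR210HG, host of a miRNA known to rise in hypoxia, was at 11.8, 12.4 and 11.5 CPM against 2.39, 2.88 and 1.90 CPM. Both groups of each gene were apart. MIR29B2CHG carries miR-29b and miR-29c, which share the seed AGCACCA and are known to target collagen messages. MIR29B2CHG was at 4.74, 2.76 and 3.54 CPM in shNC and at 0.405, 0.240 and 0.342 CPM in shSLC6A8. MIR222HG, host of miR-221 and miR-222 with the seed GCUACAU, was at 2.95, 2.45 and 2.54 CPM against 0.486, 0.685 and 0.874 CPM. The seed GAGGUAG of the let-7 family occurs in miRNAs of 2 lower hosts, MIRLET7A1HG, at 8.59, 8.37 and 9.17 CPM against 4.01, 4.35 and 5.43 CPM, and MIR4458HG, at 12.7, 13.5 and 14.6 CPM against 6.44, 5.86 and 5.47 CPM. It also occurs in let-7c of MIR99AHG and let-7i of MIRLET7IHG, which were not called, with log2 changes of 0.16 (SE 0.13) and -0.10 (SE 0.22). MIR122HG, host of a miRNA that dominates in hepatocytes, was at 7.65, 8.81 and 9.42 CPM in shNC and at 23.6, 25.7 and 23.2 CPM in shSLC6A8. MIR4435-2HG, at 116, 121 and 122.5 CPM against 39.0, 40.8 and 37.3 CPM, is a near copy of CYTOR, which fell by 1.90 (SE 0.065), so their reads may be shared.

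Antisense and divergent transcripts were set beside the coding gene whose name they carry. Of 205 divergent transcripts with a partner, both were called in 49 pairs, in the same direction in 41 (83.7%) and in opposite directions in 8. Of 424 antisense pairs, both were called in 126, with the same direction in 77 (61.1%) and the opposite in 49. The strand setting of the counting is not given in the sources used here, so reads of overlapping partners cannot be told apart, and a shared direction may come from shared reads. The partners of the examples were named after their values were seen. B4GAT1-DT was at 8.27, 6.14 and 7.71 CPM in shNC and at 23.5, 24.5 and 23.4 CPM in shSLC6A8, and its partner B4GAT1 at 66.5, 70.7 and 69.5 CPM against 186, 176 and 181 CPM. AFDN-DT rose by 1.43 (SE 0.17) and AFDN by 0.59 (SE 0.058). TBC1D22A-DT fell by 2.02 (SE 0.22) and TBC1D22A by 0.70 (SE 0.070). By DESeq2 the divergent family counted 26 higher and 20 lower of 205, against 34 and 31.

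**Figure D5:**
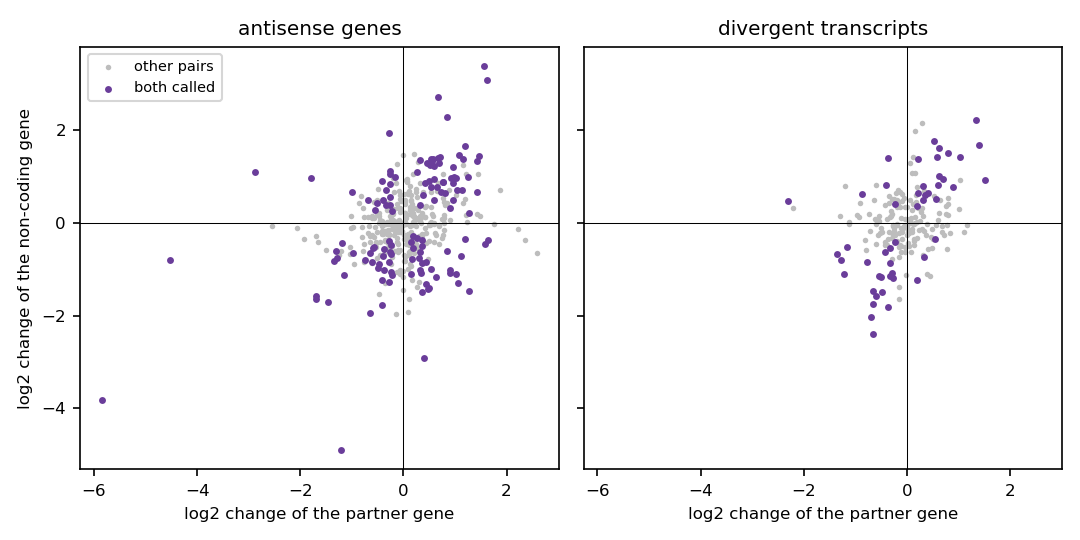
Log2 change, shSLC6A8 over shNC, of antisense genes (left) and divergent transcripts (right) on the y axis against that of the partner gene on the x axis, with purple points where both passed an adjusted p of 0.05. Purple points lie mostly in the lower left and upper right corners for divergent transcripts (41 of 49), and are spread over all corners for antisense genes (77 of 126 in the same direction).

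Promoters were searched for 8 motifs and 1 extension of one of them on both strands, in the RefSeq windows of GRCh38.p14 from 250 bases before to 50 bases after the start. Of the genes tested 11811 had such a window, and 837 of these were higher and 796 lower by a log2 of at least 1. The AP-1 motif TGACTCA, which reads as its reverse complement on the other strand, was in 3.29% of all 11811 windows, in 2.27% of those of the higher genes (19) and in 11.6% of those of the lower genes (92). Its extension TGACTCAGC, which is also a match to the antioxidant response motif TGACNNNGC, was in 0.483% of all, 0 of the higher and 2.14% of the lower windows (17). Of the 388 genes with TGACTCA, 205 were lower and 72 higher, and their median was -0.29 against 0.02 without it. In lower genes the other motifs were found at shares closer, in percentage points, to those of all windows. In higher genes ACGTG lay furthest from its share of all windows, below it. ACGTG was in 26.2% of all, 20.4% of higher and 23.4% of lower windows, TGACNNNGC in 15.1%, 14.3% and 17.3%, GGAATG in 11.03%, 11.4% and 10.4%, and TGTTTAC in 2.55%, 3.70% and 3.39%. TGATGCAA and CAAAGTCCA were each in under 1% of every set, and the longer palindromic HNF1 motif was in 1 window, which was in neither set. A match is a description and does not show that a factor binds there.

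Windows around the motif are shown for 4 lower genes of different functions, picked after their values were seen, since among the motifs searched this one differed most, in percentage points, between the promoters of lower genes and all promoters. They are F2RL2 at chr5:76623411-76623462 on the minus strand, GCNT3 at chr15:59611760-59611811 on the plus strand, TNFRSF9 at chr1:7940854-7940905 on the minus strand and SERPINB8 at chr18:63970031-63970082 on the plus strand. Each is written 5′ to 3′ on the strand of its gene, with the motif, here as its reverse complement, in capitals.
F2RL2: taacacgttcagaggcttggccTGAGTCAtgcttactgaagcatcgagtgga
GCNT3: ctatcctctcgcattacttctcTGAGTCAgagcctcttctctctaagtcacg
TNFRSF9: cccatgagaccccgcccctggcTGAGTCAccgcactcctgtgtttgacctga
SERPINB8: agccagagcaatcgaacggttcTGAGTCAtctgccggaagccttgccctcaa
In these 4 the motif began at -37, -1, -44 and -28 from the start. Such a position, within 50 bases before the start, was not the rule: it was found for 21 of the 92 lower genes with the motif (22.8%) and for 83 of all 388 genes with it (21.4%). F2RL2, TNFRSF9 and SERPINB8 are described above, and GCNT3, a branching enzyme of mucin sugars, was at 92.8, 93.3 and 87.6 CPM in shNC and at 13.7, 12.7 and 14.1 CPM in shSLC6A8.

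Gene length moved with the result. From the shortest to the longest quintile of protein-coding genes the median log2 change went from -0.14 to 0.17. The gap between these quintiles, as a log2 deviation from the mean of the libraries, was -0.065, -0.333 and -0.057 in the shNC libraries and 0.187, 0.180 and 0.075 in the shSLC6A8 libraries, so the groups were apart and shNC replicate 2 was furthest out. With the trend removed 10717 genes were called, and 9597 of them were among those called above in the same direction. With the trend removed the regulator class counted 704 higher and 788 lower, against 750 and 707 as reported. The surface class counted 307 and 298, against 323 and 278. The secreted class counted 143 and 121, against 142 and 116, and the non-coding class 380 and 489, against 365 and 509. Families were also recounted with the trend removed, and of these recounts only that of the laminin and basement membrane genes is given above. Whether gene length accounts for the balance of single families was not tested.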

How the data were processed

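Into each of the 6 Huh7 libraries went 1.3 µg of RNA, per the labels' protocols. The members, families and marker lists were chosen with earlier results of these data known. The authors deposited estimated counts per gene and TPM values for each library, per the file headers. They also deposited a log2 fold change and an adjusted p-value per gene, per the file headers. Per the submitters' processing notes the genome was GRCh38.p14. Which aligner, counting tool, gene annotation or strand option was used is not given in the sources used here. In 13.8% to 15.6% of genes with reads the estimated count was not whole, so counts were rounded. Another 2 columns of group means were not used.

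From there, genes with low counts were removed with edgeR's filterByExpr. Libraries were scaled by TMM and the 3 shSLC6A8 libraries were tested against the 3 shNC libraries with edgeR 4.0.16 (R 4.3.3, robust quasi-likelihood test). P-values were adjusted by the Benjamini-Hochberg method over all 17022 genes, with a threshold of 0.05. Library totals were 23156031 to 28078068 counts, and replicates differed by more than counting error (chi-square per degree of freedom 2.75 to 7.69). On simulated data for this comparison (16691 genes, 200 of them changed) the test recovered 74% of genes changed by a fold of 1.5. It recovered 91% of those changed by a fold of 2 and called 17 of 16491 unchanged genes. The simulation held no length trend and no outlying library, and in the real data 61.8% of genes were called. It therefore does not give the error rate of the real comparison.

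Families were defined by patterns in gene symbols (108, of which 105 had at least 5 genes tested), with gene types from GENCODE 29 for 16352 genes and positions from RefSeq for 15206. Named genes (643) were called genes with a mean log2 CPM of at least 1 and no overlap between groups: the largest changes of each family, of each class and of genes in no family, with SLC6A8. Others are said to be named after their values were seen. The labels do not say that a replicate number marks a shared culture or day, so libraries were treated as unpaired. A later check found that same-numbered replicates did not deviate together. Alternatives were DESeq2 1.42.0, limma-voom 3.58.1, other scalings and filters, a replicate block, removal of length and GC trends, and leaving out each library.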

Additional observations from a re-analysis of the deposited data

How the results depend on the processing

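The 12 counts of calls over all genes and classes stayed within 1.5 times their reported value under all 15 alternatives. With DESeq2 9471 genes were called, and across the other settings 9722 to 10954. With library totals in place of TMM factors 10600 genes were called, of which 59.7% were higher against 49.9% as reported. Leaving out each library in turn gave 9722 to 10508 calls. Of 9645 comparisons of 643 named genes, 9577 kept their direction and call, 68 lost the call and 0 changed direction, and 623 genes kept the call in all 15. These genes had been chosen for large, called and non-overlapping changes in the same libraries, so much of this stability was set by the choice. Same-numbered replicates were not paired by their deviations (correlations 0.011, -0.130 and -0.101), and with the number as a replicate block 10125 genes were called, 5045 higher and 5080 lower, of which 10053 were shared in the same direction. The groups hold 3 libraries each, which may be technical replicates, and depth limits low genes such as SLC2A2 and MBL2, whose control values rest on few reads.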

Other observations

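For some genes the deposited TPM and the counts moved apart. Among 11300 genes with a TPM of at least 2 and 20 counts in every library, the ratio of count to TPM, relative to all genes, did not overlap between groups for 4015, and it shifted by a log2 of at least 0.5 in 100 of these, 74 upward and 26 downward in shSLC6A8. The examples were chosen after their values were seen. GSK3B, a kinase of glycogen and WNT signalling, had a mean TPM of 70.5 in shNC and 28.3 in shSLC6A8. Its log2 change in counts was 0.01. The log2 ratio of its count to its TPM was 0.62, 0.20 and -1.74 in shNC and 0.85, 0.68 and 0.72 in shSLC6A8. Most of the shift of GSK3B thus came from shNC replicate 3. For CDK5RAP2, a centrosome protein, the TPM was 76.6 and 40.5 and the log2 change in counts -0.06. GPR157, an orphan receptor, went the other way, with a TPM of 3.55 and 7.88 and a log2 change in counts of -0.58. Its log2 ratio of count to TPM was 1.284, 1.287 and 1.287 in shNC and -0.034, 1.258 and -1.105 in shSLC6A8. Replicate 2 of shSLC6A8 thus lay close to the controls. For IAH1, an esterase, the TPM was 29.7 and 48.2 and the log2 change in counts -0.19. For SLC6A8 the log2 ratio of count to TPM was 0.39, 0.63 and 0.55 in shNC and -0.21, -0.27 and 0.60 in shSLC6A8. The groups thus overlapped through replicate 3 of shSLC6A8, while its replicates 1 and 2 lay below all controls. The isoforms behind the TPM values were not measured here.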
